A study of Mus musculus with 10 samples.

Results

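The Tle genes encode the Groucho corepressors of the mouse, and 5 of them were followed through 2 lists of REST binding sites in cortex: Tle1, Tle2, Tle3, Tle4 and Tle6. REST is a zinc finger repressor of neuronal genes, and its binding was mapped by ChIP-seq, the sequencing of immunoprecipitated chromatin, with an antibody against its C-terminal end. The 5 genes were chosen by name with their values in these lists already known, so the ranks and enrichments of their peaks are given as a description and carry no test. A peak was assigned to a gene when it overlapped the gene body or lay within 5 kb of one of its start sites in the RefSeq annotation of mm10, which holds 39436 genes on chromosomes 1 to 19 and X. By this rule the 5 genes had 8 of the 3006 peaks of the WT list and 7 of the 5077 peaks of the 3xTg list.

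The groups were WT and 3xTg mice. 3xTg mice carried mutant human APP (Swedish) and tau (P301L) transgenes with a PS1 knock-in mutation on mixed C57BL/6J and 129Sv/Ev strains. The WT mice were littermates of the 3xTg mice. All mice were female and 11 months old. Each genotype had 4 ChIP replicates, each a pool of 4 cortices taken as bulk tissue, and 1 input library made without the antibody. The submitters' processing notes name BWA as the aligner of replicates 1 and 2 and of the inputs, and STAR for replicates 3 and 4. Each list joins the 4 replicates of a genotype, so no value of a peak in it has a replicate spread. No significance test between the genotypes was made here. The authors compared the genotypes with DiffBind, and those results are not used here. The lists hold no expression values, and the cortical label could not be set against marker genes. The WT list had a median fold enrichment of 7.28 (6.0 to 68.6) and the 3xTg list one of 10.8 (8.5 to 69.0). Fold enrichment is the height of a peak's summit, its highest point, over the local background as the peak caller estimated it. The depth behind a single peak was not analysed here.

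Tle proteins do not bind DNA themselves. They are brought to genes by DNA-binding proteins such as Hes, Lef, Tcf and Runx factors, many of which hold short peptides that the WD40 repeat domain of Tle recognizes, and they repress transcription there as oligomers that recruit histone deacetylases. Tle1 to Tle4 are full-length family members. Tle6 is a diverged and shorter relative, best known from the oocyte, and Tle5 (also called Aes) is a short relative without the WD40 domain. REST represses its own targets by other corepressors, above all RCOR1 and SIN3A, and recognizes a long DNA element named RE1.

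All 5 genes had a peak in both lists. Across the annotation, 7.73% of genes had a WT peak by the same rule and 11.7% had a 3xTg peak. Since long genes meet more peaks, the share was also taken among the 17717 genes as long as the members, from 10282 to 150112 bases. Of these, 9.32% had a WT peak and 14.3% a 3xTg peak. The strongest peak of every member ranked between 1 and 36 in the WT list by fold enrichment. In the 3xTg list the strongest peaks ranked between 1 and 126, and 4 of the 5 were among the first 100. Only 0.287% of genes had a WT peak ranked 1 to 100, and 0.284% had a 3xTg peak of that rank. These ranks are the values by which the genes were selected.

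The sequence under the peaks is shown first, because the strongest peaks of the family had letters in common. A search of both strands of the strongest WT peaks for the longest run of bases present at 3 or more members returned a single run of 23 bases, at Tle1, Tle2 and Tle4. The longest run present at 4 members was TGATTGACAGC, its last 11 bases, at Tle1, Tle2, Tle4 and Tle6. The lines give 30 bases at each member from the GRCm38.p6 assembly (mm10), 5′ to 3′ on the gene's own strand, and capitals mark the bases equal to the 23-base run.

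Tle1, chr4:72201230-72201259, minus strand: cgcCCCACGTTACTTTGATTGACAGCtcgg
Tle2, chr10:81571030-81571059, plus strand: agaCCCACGTTACTTTGATTGACAGCcaga
Tle4, chr19:14598537-14598566, minus strand: cacCCCACGTTACTTTGATTGACAGCtgaa
Tle3, chr9:61370532-61370561, plus strand: cacCCCtCGTggtTTTGAcTGACAGCtctg
Tle6, chr10:81601120-81601149, minus strand: gaagCaggaactCcgTGATTGACAGCacgg

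An exact copy of the 23-base run occurred 3 times on chromosomes 1 to 19 and X, and all 3 copies lay inside these REST peaks, in both lists. Each copy had the same direction as its Tle gene. Their centres lay 352 bases upstream of the curated start site of Tle1, 4243 bases upstream of that of Tle2 and 369 bases upstream of that of Tle4. The start site of C630043F03Rik lay inside the first copy, 10 bases from its left end. The nearest annotated start site to the Tle2 copy was within Gm31936, 149 bases from the edge of the copy. For the last copy it was that of Tle4. The best match in the strongest Tle3 peak had 5 mismatches, lay 1820 bases upstream of the start site and pointed along the gene. Only 4 of the 3006 WT peaks had a match with 5 mismatches or fewer, and these were the strongest peaks of Tle1, Tle2, Tle3 and Tle4. In the 3xTg list 5 of 5077 peaks did. Tle6 held the 11 letters centred 229 bases upstream of its first curated start site, but aligned on them it differed from the 23-base run at 10 positions. Its best match anywhere in the peak had 9 mismatches, a number that 27.0% of WT peaks reached. The 11 letters were present in 8 WT peaks (0.266%), of which 4 ranked 1 to 100, and in 8 3xTg peaks (0.158%), of which 3 did. Of 32851 RefSeq promoters, taken from 250 bases before to 50 bases after a start site, 23 held them (0.0700%). The letters TGATTGACAG within them are known as a site of PBX with MEIS or PREP homeodomain proteins, whose binding was not measured here. The run was found by searching these peaks, so its presence in them is a description.

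A second shared stretch was the E-box CACGTG, a site of basic helix-loop-helix proteins, in the longer palindrome CCCACGTGGG. Within 300 bases centred on the summit it was present at Tle3, Tle4 and Tle6, in both lists. Of all WT summit windows, 16 of 3006 held it (0.532%), and of all 3xTg windows 19 of 5077 did (0.374%). Among the 100 WT peaks of highest rank 5 windows held the palindrome, those of Tle3, Tle4, Tle6 and Gadd45b and a peak on chromosome 11 from 120304681 to 120305907 without a gene by the rule. The letters were chosen after the windows had been compared. The plain E-box was present at the same 3 members, in 6.62% of WT windows and in 5.36% of 3xTg windows. The sequences show 200 bases centred on the WT summit for Tle1, Tle3 and Tle4 and on the 3xTg summit for Tle2. For Tle6 they show the 30 bases around the palindrome, which lies in the untranslated first exon of a predicted Tle6 transcript. Capitals mark the palindrome, its shorter form ACGTGGG on either strand and the 11 letters. The 200 bases centred on the WT summit of Tle2 held none of them.

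Tle1, chr4:72201107-72201306, minus strand: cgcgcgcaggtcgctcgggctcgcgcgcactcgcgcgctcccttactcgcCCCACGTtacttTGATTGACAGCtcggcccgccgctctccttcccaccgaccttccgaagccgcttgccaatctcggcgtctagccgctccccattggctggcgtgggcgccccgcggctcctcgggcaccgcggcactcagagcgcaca
Tle2, chr10:81570955-81571154, plus strand: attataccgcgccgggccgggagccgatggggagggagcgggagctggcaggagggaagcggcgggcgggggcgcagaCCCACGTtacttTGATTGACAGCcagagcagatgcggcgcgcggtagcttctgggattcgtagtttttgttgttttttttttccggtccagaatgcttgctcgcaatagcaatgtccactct
Tle3, chr9:61370505-61370704, plus strand: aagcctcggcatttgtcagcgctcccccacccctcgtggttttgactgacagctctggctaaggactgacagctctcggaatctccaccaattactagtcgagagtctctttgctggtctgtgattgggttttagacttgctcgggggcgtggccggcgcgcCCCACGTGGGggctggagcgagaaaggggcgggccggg
Tle4, chr19:14598285-14598484, minus strand: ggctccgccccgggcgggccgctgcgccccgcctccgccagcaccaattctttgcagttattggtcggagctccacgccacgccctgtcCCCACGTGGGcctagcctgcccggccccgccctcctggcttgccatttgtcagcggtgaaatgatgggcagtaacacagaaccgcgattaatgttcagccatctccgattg
Tle6, chr10:81601066-81601095, minus strand: tggctcgcagCCCACGTGGGctcgccgcct

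The palindrome recurred within the Tle3 peak. The strongest WT peak of Tle3 held 2 copies and the smaller WT peak beside it held 1, and the single 3xTg peak over both held all 3. No other WT peak held 2 copies, and no other 3xTg peak held 3. One copy was centred 65 bases before the curated Tle3 start site, inside the promoter window, and at Tle4 and Tle6 a copy was centred 207 and 180 bases before a curated start site. All 5 members were matched in the RefSeq promoter table, with 7 promoters between them. Of its 32851 promoters, 39 held the palindrome (0.119%). Among these 39, on chromosomes 1 to 19 and X, 12 were under a WT peak (30.8%) and 17 under a 3xTg peak (43.6%), beside 3.6% and 5.66% of all promoters. The letters came from the Tle windows, and the 39 include promoters of Tle3, Tle4, Tle6 and Gm34157. Without these, 8 of 35 were under a WT peak (22.9%) and 13 of 35 under a 3xTg peak (37.1%). The shorter form ACGTGGG was in the summit windows of Tle1, Tle3, Tle4 and Tle6 in the WT list and of all 5 members in the 3xTg list, where 3.33% of WT windows and 2.90% of 3xTg windows had it. Read on the other strand it is CCCACGT, the opening letters of the 23-base run. The only copy in the Tle2 peak and 1 copy each in the Tle1 and Tle4 peaks were part of that run. Counting both strands, the strongest WT peaks held 4 copies of ACGTGGG at Tle1 and at Tle3, 3 at Tle4 and at Tle6, and 1 at Tle2. The palindrome holds these letters once on each strand, so each palindrome counted as 2 copies. The 4 copies at Tle3 were its 2 palindromes, and 2 of the 3 copies at Tle4 and at Tle6 were 1 palindrome. By the same count only 2 of the 3006 WT peaks held 4 copies or more, and 9 held 3 or more. A wider peak offers more room, and the Tle1 and Tle3 peaks were 1584 and 3536 bases wide against a median of 611.

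RE1, the element REST is known for, was searched by counting mismatches to its consensus. The paper's motif analysis, a different measure, found RE1 highly enriched in the peaks of both genotypes. A match to the 20-base RE1 consensus with at most 5 mismatches was present in 1 of the 8 WT member peaks and in 2 of the 7 3xTg member peaks. No member had one within 300 bases centred on a summit. In the whole lists 7.09% of WT peaks and 6.09% of 3xTg peaks held a match, and among the 100 peaks of highest rank 30 and 25 did. The 2 matches are shown on the plus strand with mismatched bases in lower case.

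Tle1 3xTg peak, chr4:72202191-72202210, plus strand: aGAGCaGTtCATGGaGCTGt
Tle6 upstream peak, chr10:81606122-81606141, plus strand: GGgGCTGTCaAaGGaGCgGA

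The Tle1 match lay 1201 bases from the 3xTg summit, in sequence that the WT peak did not reach. The match by Tle6 lay 245 bases from the WT summit and 228 bases from the 3xTg summit. The strongest WT peak of each of the 5 genes had a best match with 7 mismatches, where the median WT peak had 8. A wider peak offers such a search more room. Within 300 bases at the WT summit the best match had 8 mismatches at Tle1 and Tle3, 7 at Tle2 and Tle6 and 9 at Tle4. The median WT window had 8. The letters GGTGCTGA from the right side of RE1 were in none of the members' summit windows, in 29.0% of those of the 100 first WT peaks and in 6.55% of all WT windows. CTGTCC, from its left side, was in the window of Tle4 alone, and in 22.4% of all WT windows. CCAAT was in all 5 WT windows, with 36.8% of all WT windows holding it, and in the 3xTg windows of Tle3, Tle4 and Tle6. These searches say only which letters the windows hold.

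Tle3, a full-length member, had the peak of highest enrichment in both lists. The gene lies on chromosome 9 from 61372326 to 61418497 on the plus strand. Its WT peak ran from 61369464 to 61372999 with a fold enrichment of 68.6 and a −log10 q of 536, and it was the widest WT peak at 3536 bases. Its 3xTg peak ran from 61368416 to 61373553 with a fold enrichment of 69.0 and a −log10 q of 589. Both ranked 1 and both covered the start site, but the summits lay 1761 and 1777 bases upstream of it. They fell between Tle3 and Gm34157, a predicted noncoding gene on the other strand. The start site of Gm34157 is 1836 bases from that of Tle3. Both peaks covered it too, with summits 115 bases away in WT and 99 bases away in 3xTg. A second WT peak, from 61368595 to 61369054, had a fold enrichment of 7.56 and rank 1285, and lay inside the single 3xTg peak. By distance in log2 fold enrichment over both lists, the genes most like Tle3 among 2571 with a peak in both were Gm34157, which shared its peak, Utp4 (63.0 and 67.0, rank 2 in both, distance 0.13), and Tle1 with its neighbour C630043F03Rik (distance 0.37).

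Tle1, also a full-length member, lies on chromosome 4 from 72109945 to 72200989 on the minus strand. The WT peak ran from 72200298 to 72201881 with a fold enrichment of 53.1 and rank 6. The 3xTg peak ran from 72198824 to 72202256 with a fold enrichment of 66.5 and rank 3. The WT peak covered 9 and the 3xTg peak all 10 of the annotated Tle1 start sites. The summit lay 314 bases upstream of the curated start site in WT and 107 bases upstream in 3xTg. C630043F03Rik, a noncoding gene on the other strand, starts 255 bases from Tle1, and both peaks covered its start site as well.

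Tle2, a full-length member on chromosome 10 from 81574739 to 81592581, was the exception in position. Its peak lay upstream of the gene and covered none of its start sites. In WT it ran from 81570516 to 81572274 with a fold enrichment of 46.5 and rank 13, and its nearer edge was 2465 bases from the closest Tle2 start site. In 3xTg it ran from 81570235 to 81572908 with a fold enrichment of 61.8 and rank 5, and its edge was 1831 bases away. The summit lay in an exon of Gm31936, a predicted noncoding gene on the same strand. The peak covered a start site within the body of Gm31936, but not its first start site at 81569046. The called summit differed between the lists by 649 bases, from 81571704 in WT to 81571055 in 3xTg, and the 3xTg summit fell 11 bases from the centre of the 23-base run. Among the 100 first WT peaks the median shift was 15.0 bases, and no other of the 100 shifted as far. The WT summit of Tle2 was 660 bases from the centre of the run. At Tle1 the centre lay 38 bases from the WT summit and 245 bases from the 3xTg summit. At Tle4 these distances were 167 and 156 bases.

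Tle4, the last full-length member, lies on chromosome 19 from 14448072 to 14598183 on the minus strand and had 2 peaks in each list. The promoter peak ran from 14597903 to 14599139 in WT (fold enrichment 37.3, rank 25) and from 14597613 to 14599339 in 3xTg (40.2, rank 63). It covered the curated start site, with summits 202 and 213 bases upstream. By −log10 q the same peaks ranked 4 and 15, well above their ranks by fold enrichment. The other peak was in an intron, from 14558916 to 14559375 in WT (7.19, rank 1540) and from 14558863 to 14559476 in 3xTg (15.9, rank 906). It stood on a tandem repeat of period 14 bases, in which 76.5% of the bases of the WT peak equalled the base 1 period on, and its GC content was 24.3%. The 120 bases at its WT summit show the repeat.

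Tle4 intron, chr19:14559123-14559242, minus strand: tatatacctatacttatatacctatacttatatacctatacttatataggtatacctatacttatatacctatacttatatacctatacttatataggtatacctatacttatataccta

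Tle6, the diverged member, lies on chromosome 10 from 81590904 to 81601185 on the minus strand and also had 2 peaks in each list. The promoter peak ran from 81600463 to 81601738 in WT (fold enrichment 31.0, rank 36) and from 81599977 to 81601822 in 3xTg (31.2, rank 126). It covered the first start sites of the gene. The summits lay 167 and 170 bases upstream of the first curated start site of Tle6. They were 118 and 115 bases downstream of its first annotated start site, at 81601185. By −log10 q the promoter peak ranked 16 and 28. The upstream peak ran from 81605614 to 81606651 in WT (13.7, rank 257) and from 81604861 to 81607052 in 3xTg (23, rank 326). It covered the start site of BC025920 on the other strand. Its edge was 4429 bases from the closest Tle6 start site in WT and 3676 bases in 3xTg, the largest distances that the limit of 5 kb took in.

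**Figure D1:**
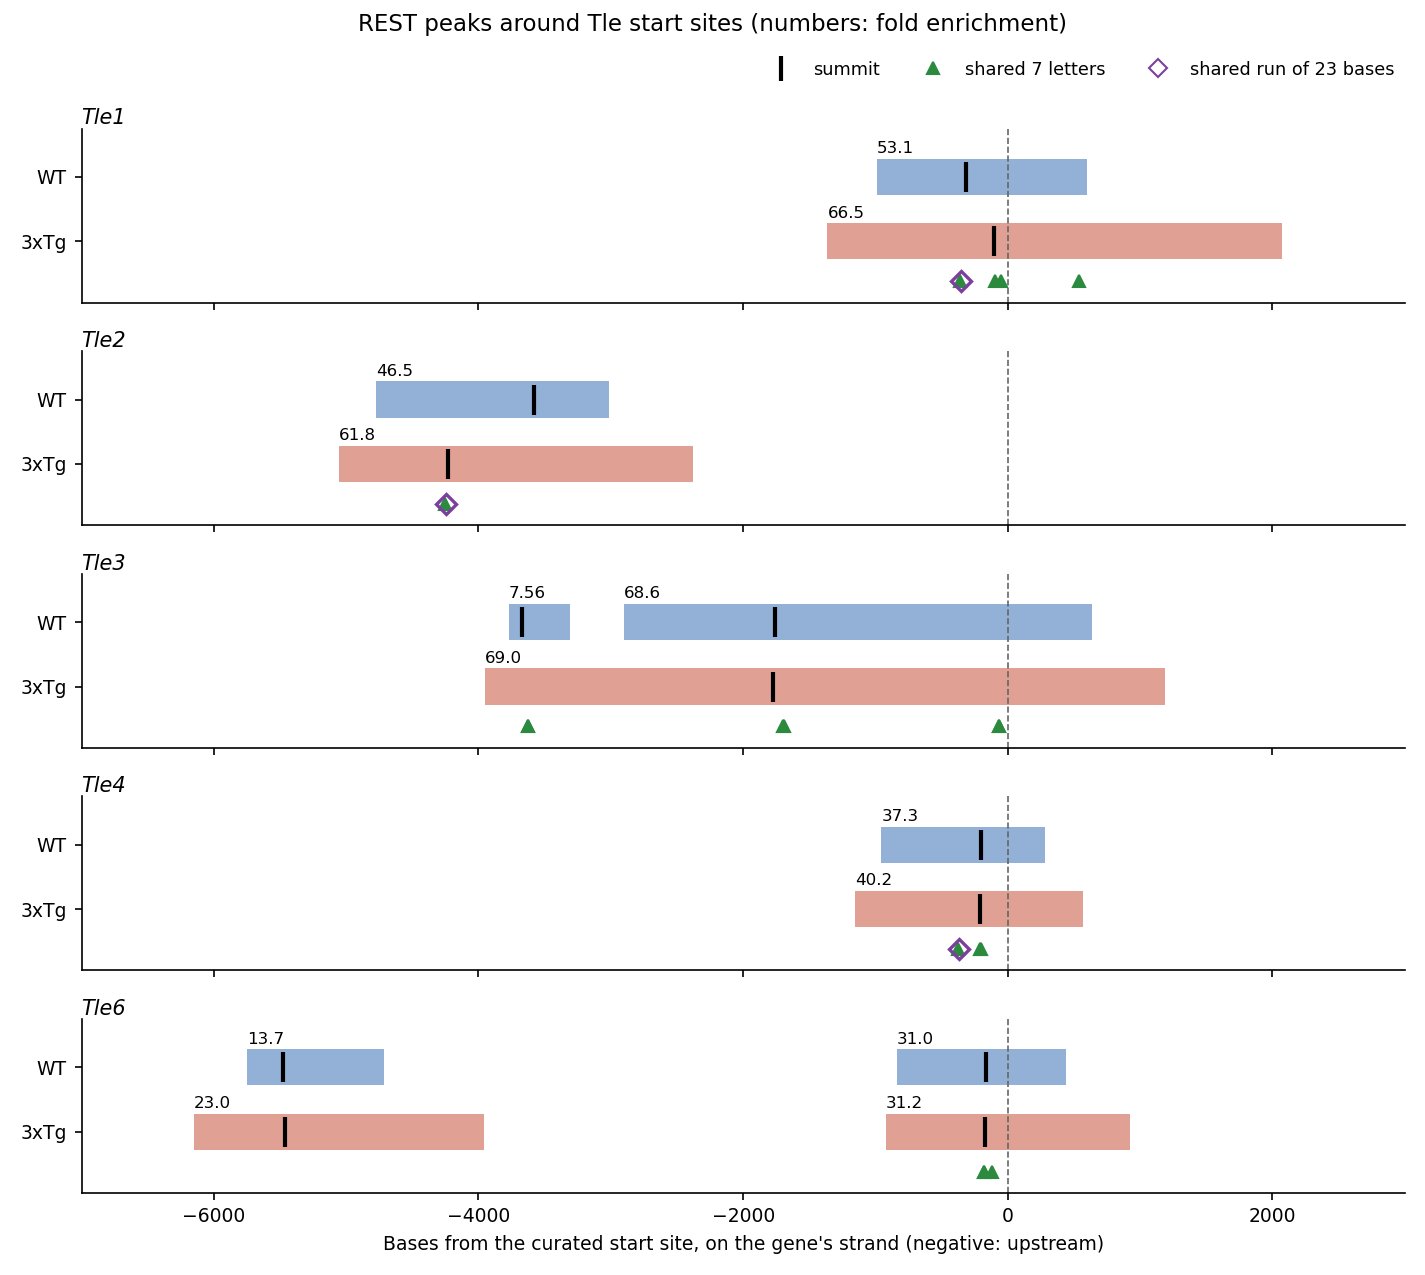
REST peaks by distance in bases from the curated start site of each Tle gene (dashed line), on the gene's strand, with WT peaks in blue, 3xTg peaks in red and the fold enrichment above each. Ticks mark summits, triangles the 7 letters ACGTGGG on either strand and diamonds the 23-base run, which lies 352, 4243 and 369 bases upstream at Tle1, Tle2 and Tle4. Tle2 is the member without a peak over its start site. The intron peak of Tle4 is outside the range drawn.

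**Figure D2:**
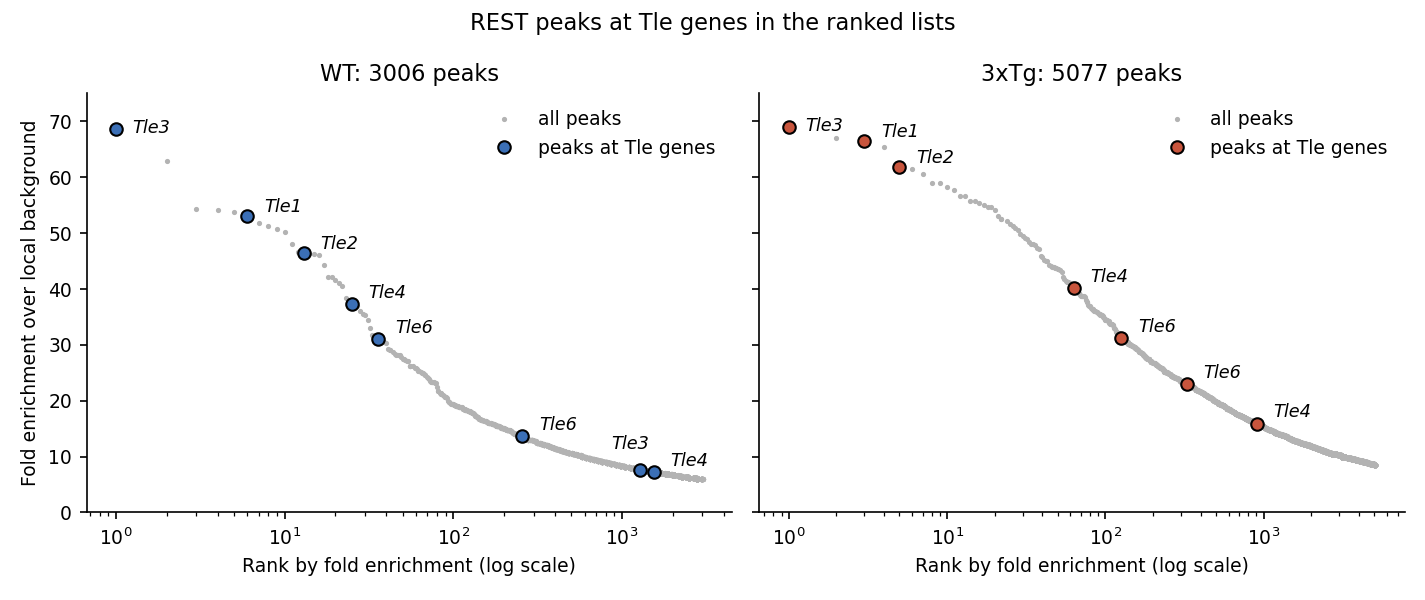
Fold enrichment against rank (log scale) for the 3006 WT peaks and the 5077 3xTg peaks, in grey, with peaks at Tle genes in colour. The strongest peak of each member ranks 1 to 36 in WT and 1 to 126 in 3xTg.

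Tle2 and Tle6 are neighbours, and with Tle5 they occupy 41.7 kb of chromosome 10. Tle2 and Tle6 run towards each other and their 3′ ends overlap by 1678 bases. Each list had 3 peaks in this neighbourhood, the one upstream of Tle2 and those of Tle6, and none inside the body of Tle2. Tle5 had no peak by the rule in either list. The nearest peak was that of Tle2, which lay between the genes, 4145 bases beyond the end of Tle5 and 11072 bases from its start site in WT, and 3864 and 10791 bases in 3xTg. Tle7, another distant relative on chromosome 8, also had none, with the nearest peak 84778 bases from its body in WT and 534823 bases in 3xTg.

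**Figure D3:**
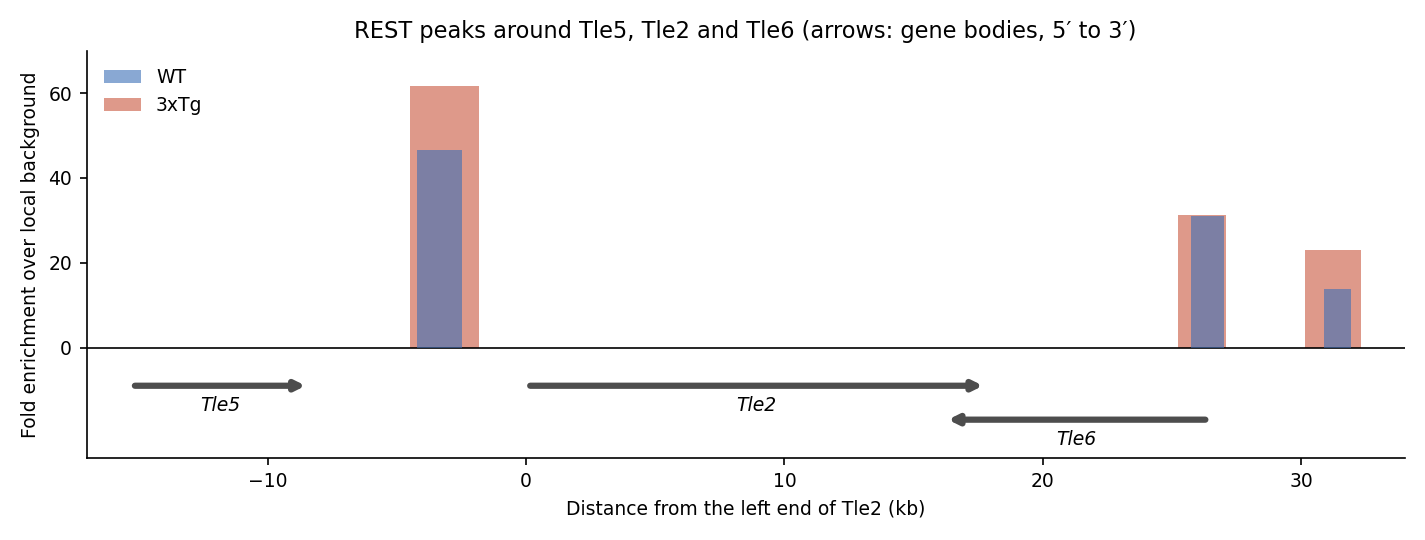
Fold enrichment of REST peaks (bar height; bar width is peak width) in WT (blue) and 3xTg (red) by distance in kb from the left end of Tle2, with arrows for the gene bodies from 5′ to 3′. The peak between Tle5 and Tle2 reaches 46.5 in WT and 61.8 in 3xTg, and the 2 peaks of Tle6 are lower.

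Every WT peak at a Tle gene lay wholly inside its 3xTg counterpart, so all 8 WT peaks and all 7 3xTg peaks were shared. Of all 3006 WT peaks, 2504 overlapped a 3xTg peak, and so did each of the 100 first WT peaks. The share among all 3xTg peaks was not counted here. The strongest peaks were 1.40 to 2.17 times as wide in 3xTg, against a median of 1.51 for the 100 first WT peaks. Their fold enrichment in 3xTg was 1.25 times that in WT at Tle1, 1.33 times at Tle2, 1.01 times at Tle3, 1.08 times at Tle4 and 1.01 times at Tle6. The median ratio was 1.70 over all 2504 WT peaks that overlapped a 3xTg peak (10th to 90th percentile 1.34 to 2.23), and 1.48 over the 100 of highest WT rank (1.07 to 1.80). Of those 100, 4 had a lower ratio than Tle3, 5 a lower one than Tle6 and 10 a lower one than Tle4, while 22 and 33 had a lower ratio than Tle1 and Tle2. The Tle peaks were not set against peaks of like WT enrichment, and the highest WT peaks often rose little. The WT peaks ranked 2, 4 and 5 went from 63.0 to 67.0, from 54.1 to 54.6 and from 53.7 to 55.8. The WT peak ranked 7 went from 51.8 to 65.4. Among the weaker peaks of the family the ratio was 1.69 for the upstream Tle6 peak and 2.21 for the Tle4 intron, and 9.13 for the small Tle3 peak, whose counterpart is the large 3xTg peak that also covers the strongest WT peak. As a share of its list, the promoter peak of Tle4 stood within the first 0.832% of WT peaks and the first 1.24% of 3xTg peaks, and that of Tle6 within the first 1.20% and 2.48%. Enrichments from separately called lists are not on a common scale, and without replicate values none of these ratios was tested.

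**Figure D4:**
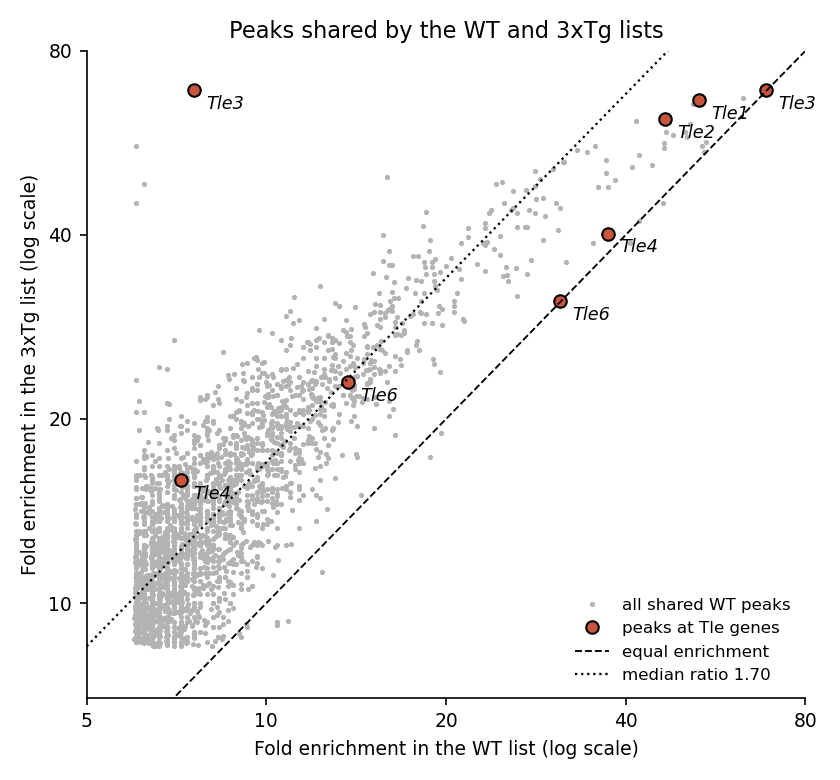
Fold enrichment in the 3xTg list against that in the WT list (both log scales) for the 2504 WT peaks that overlap a 3xTg peak, with peaks at Tle genes in red. The dashed line marks equal enrichment and the dotted line the median ratio of 1.70, and the strongest peaks of Tle3, Tle4 and Tle6 lie on or near the dashed line. The point at 7.56 is the small WT peak inside the large 3xTg peak of Tle3.

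The strongest peaks differed in base composition. Observed CpG relative to that expected from C and G content was 1.00 in the strongest WT peak of Tle1, 0.99 at Tle4 and 0.76 at Tle3, but 0.50 at Tle2 and 0.46 at Tle6, against a median of 0.36 over the WT list. Aligned with each other, the strongest WT peaks had no likeness longer than 29 bases, and the longest identical stretch was 25 bases, between Tle1 and Tle4.

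Genes for the proteins that bring Tle to DNA were counted by the same rule. Of 22 such partners, 3 had a WT peak (13.6%) and 5 a 3xTg peak (22.7%), beside 7.73% and 11.7% of all genes, and none of these peaks ranked 1 to 100. The difference between partners and Tle genes was not tested. Hes1, a Notch target and repressor of neural differentiation, had a peak over its start site with a fold enrichment of 6.81 in WT (rank 1877) and 14.3 in 3xTg (rank 1173). Pax5, a transcription factor of B cells and the midbrain, had the strongest partner peak, in an intron, at 16.1 in WT (rank 162) and 30.2 in 3xTg (rank 139). Lef1, a factor of Wnt signalling, had an intron peak at 6.24 (rank 2497) and 9.32 (rank 3892). Tcf7l2, of the same family, and Prdm1, a zinc finger repressor, had intron peaks in the 3xTg list alone, at 8.81 (rank 4567) and 12.8 (rank 1576). The other 17 partners, among them Hes5, the Runx genes, Six3 and Otx2, had none in either list.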

How the data were processed

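The authors deposited 1 peak list per genotype that joins its 4 replicates, in mm10 coordinates. Their methods name STAR, and the submitters' processing notes name BWA for replicates 1 and 2 and STAR 2.7.0a for replicates 3 and 4. The authors called peaks with MACS, kept those with a fold enrichment over 5 and q under 0.01, and removed blacklisted regions. The lowest values in the deposited lists were above these limits and differed between lists. They were a fold enrichment of 6.00 and a −log10 q of 13.3 in WT, and 8.50 and 29.0 in 3xTg. In the deposited lists each peak has a score, a fold enrichment (a ratio), the −log10 of its p-value and of its q-value, and the summit offset. The score and p-value were not used here.

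Peaks on chromosome Y, 4 in WT and 9 in 3xTg, were not used. Peaks were ranked by fold enrichment and set against RefSeq genes of GRCm38.p6, all transcripts included. RE1 was searched on both strands with the HOMER consensus. The 5 genes, the 22 partners and the motifs were chosen with earlier results of these data known. The genes named are the members, partners with a peak, genes at member peaks and those nearest to Tle3 in enrichment. Gadd45b was named after its values were seen. Tests on simulated data found every planted RE1 site or a match with fewer mismatches in the same sequence. Alternatives were other distances, the summit alone, stricter thresholds, curated transcripts, chromosome Y kept, equal list sizes, another overlap, other mismatch limits and rank by q. Python 3.11.15, numpy 2.4.6, pandas 2.3.3, pysam 0.24.0, bedtools 2.31.1, samtools 1.23.1, blastn 2.17.0 and matplotlib 3.10.9 were used. Depth per library was not analysed here.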

Additional observations from a re-analysis of the deposited data

How the results depend on the processing

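No paired analysis was possible because each list pools the replicates of a genotype. All 5 members kept a peak in both lists under every alternative tried except start sites alone within 1 kb, where Tle2 had none and 4 member peaks were left in each list. That limit also brought the share of all genes to 4.42% in WT and 6.48% in 3xTg, and the partners to 1 gene, Hes1, in each list. With start sites alone within 5 kb, 2 partners were left in 3xTg. With as many 3xTg as WT peaks, chosen after seeing the data, 3 partners were left in 3xTg, as many as in WT. At a fold enrichment over 10, 1.65% of genes and 1 partner had a WT peak and 3 partners a 3xTg peak. Requiring overlap of 50% of both peaks left 5 member peaks shared in each list. RE1 matches in member peaks fell to 0 in both lists with at most 4 mismatches and within 300 bases at the summit. Of 71 such values, 55 stayed within 1.5 times the reported one. Some of the 55 were bound to stay. The lowest −log10 q was 13.3 in WT and 29.0 in 3xTg, so a limit of q under 1e-05 removed no peak. No member lies on chromosome Y, so keeping that chromosome could not change the member counts. Ranks by −log10 q were 4 and 16 in WT and 15 and 28 in 3xTg for Tle4 and Tle6. The other 16 of 20 ranks stayed within 1.5 times. Pooled lists allow no replicate error, and no value of a single library was used. The E-box palindrome, the 7 letters and the 23-base run were found in these peaks and were not searched in other data.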
